A study of Mus musculus with 4 samples.

Results

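The genes described here encode the enzymes that cut and cross-link the extracellular matrix, together with their inhibitors. They were taken by symbol alone, as every matrix metalloproteinase (*Mmp*), tissue inhibitor of metalloproteinases (*Timp*), ADAMTS protease (*Adamts*) and lysyl oxidase (*Lox*, *Loxl*) in the count files. The rule found 51 genes among the 25239 gene symbols, namely 23 *Mmp*, 4 *Timp*, 19 *Adamts* and 5 *Lox* genes.

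RNA-Seq had been performed on CD4+ T cells isolated from lung tumors, with 2 libraries for WT mice and 2 for CD4/ALK4-KO mice, that is, CD4CreERT2+/-/Acvr1bfl/fl animals. All mice were of the C57BL/6 strain and had received LLC-OVA cells (Lewis lung carcinoma carrying ovalbumin as a model antigen) into a vein. Per the labels the lung tumors were excised after 18 to 22 days, whereas the paper's methods state a somewhat earlier range for this model. The sources do not settle which range held for these libraries. In the CD4/ALK4-KO mice, Cre is driven by the mouse *Cd4* promoter and is active once tamoxifen has been given, so that *Acvr1b*, the gene of the activin type I receptor ALK4, can be deleted only in cells that have used that promoter. The WT mice were littermates, and whether they carried any of these alleles or received tamoxifen, and whether mice were pooled for a library, is not given in the sources used here. The cells were recovered from a density gradient of digested tumor-bearing lung and isolated with a kit, so the libraries can hold RNA of other lung cells. P-values measure the spread between these libraries.

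The libraries held 11823908 to 13943237 counts on genes. *Acvr1b* itself was counted 426 and 342 times under the WT label and 322 and 445 times under the CD4/ALK4-KO label (log2 fold change 0.16, standard error 0.24, adjusted p = 0.657), and thus did not separate the genotypes as labelled. The T cell markers were present, and all 11 that were tested were higher under the CD4/ALK4-KO label, with a summed level of 385 to 420 CPM (counts scaled to library size) in WT and 2117 to 2238 CPM in CD4/ALK4-KO. Markers of fibroblasts summed to 7084 to 7659 CPM in WT and 4130 to 4923 CPM in CD4/ALK4-KO, and 7 of the 12 were lower. *Rhox5* and *Plac1*, listed as tracers of the tumor line, summed to 318 to 362 CPM in WT and 42.1 to 50.3 CPM in CD4/ALK4-KO, and both were lower, while the other tracers *Rhox6* and *Rhox9* had 0 counts. Fewer cells of a type and less RNA per cell cannot be told apart in such libraries, and the part of these other cells in the results given here was not tested.

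Matrix metalloproteinases are zinc-dependent enzymes, made as inactive proenzymes, that cut collagens, gelatin, laminins and many other proteins outside the cell. The TIMPs bind their active site and block it. The ADAMTS proteases are secreted relatives that cut the large proteoglycans, trim procollagens or act on fibrillin-rich microfibrils. Lysyl oxidases are copper-dependent enzymes that oxidize lysine side chains in collagen and elastin, the first step of their cross-linking. In the lung these genes are known mainly from fibroblasts, macrophages, neutrophils and epithelial cells.

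Of the 51 genes, 37 passed the expression filter and were tested between the genotypes, and 14 did not. At an adjusted p under 0.05 (edgeR's quasi-likelihood test, Benjamini-Hochberg adjustment over 13919 genes), 8 were lower in libraries with the CD4/ALK4-KO label and 4 were higher. Across all genes tested, 15.4% were lower, 17.4% were higher and 32.8% changed in either direction, against 32.4% of these 37, so the share of matrix genes that changed was close to that of genes at large. In 24 of the 37 the CPM of the groups did not overlap, where 66.7% of all genes tested showed no overlap. Their median log2 fold change was -0.16, beside -0.0082 over all genes, and it was -0.018 when at least 10 counts were asked of every library, which removes 3 of these genes, *Mmp10*, *Mmp17* and *Mmp28*. Fewer of them passed the test without WT replicate 1 or without WT replicate 2. Leaving out a library changes the power for every gene, so this fall is not read as a trait of the matrix genes. With scaling to 4 T cell receptor genes (*Cd3d*, *Cd3e*, *Cd3g* and *Cd247*) in place of all genes, the median of all genes moved by -2.35 on the log2 scale. It was then -2.36, and 36 of the 37 matrix genes were lower and none was higher. The 4 scaling genes were themselves higher under the CD4/ALK4-KO label. This scale therefore lowers genes at large, and these counts do not set the matrix genes apart.

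The 51 genes together took 0.227% and 0.188% of all counts in the WT libraries and 0.185% and 0.169% in the CD4/ALK4-KO libraries. Per length of exon, *Timp1* had the highest level in both genotypes, with a mean of 305 CPM per kb in WT and 161 CPM per kb in CD4/ALK4-KO. In WT it was followed on that scale by *Mmp3* at 99.4, *Timp2* at 64.7 and *Mmp14* at 42.1 CPM per kb. *Mmp3* had 281 CPM in WT replicate 1 and 77.5 CPM in WT replicate 2, and its place above *Timp2* rested on replicate 1. In CD4/ALK4-KO it was followed by *Timp3* at 48.1, *Timp2* at 38.7 and *Mmp8* at 36.4 CPM per kb, and the *Timp2*, *Timp3* and *Mmp8* levels there differed by less than the distance between the replicates. The leading inhibitor per length of exon was therefore the same in both genotypes. In mean CPM, without regard to length, *Timp1* led the inhibitors in WT at 271 and *Timp3* in CD4/ALK4-KO at 391. Among the proteases *Mmp3* had the highest mean per length of exon in WT and *Mmp8* in CD4/ALK4-KO. In CD4/ALK4-KO replicate 2, however, *Mmp8* was below *Mmp19* and *Mmp14* on that scale.

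**Figure D1:**
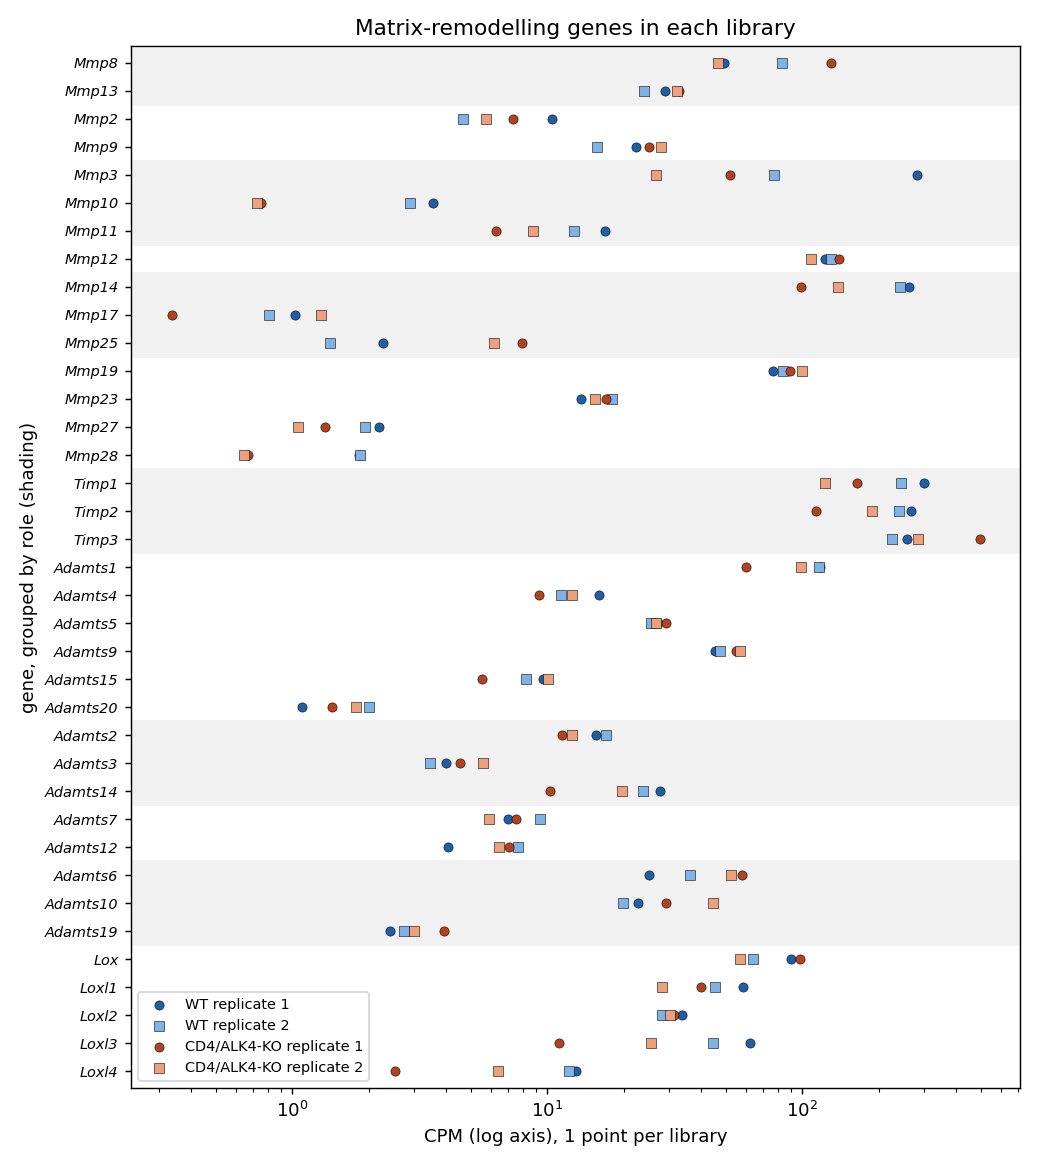
CPM (log axis) of the 37 matrix genes that passed the expression filter, with 1 point per library and the genes shaded by role. The WT and CD4/ALK4-KO points are apart for *Mmp10*, *Mmp14*, *Mmp25*, *Loxl3* and *Loxl4*, whereas for *Mmp8* and *Lox* the replicates of a genotype lie farther apart than the genotypes.

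The stromelysins *Mmp10* and *Mmp11* were lower in CD4/ALK4-KO, and *Mmp3*, with the largest fitted difference of the 3, did not pass the test. Stromelysin 1, encoded by *Mmp3*, cuts proteoglycans, laminin and fibronectin and activates other MMP proenzymes. Its counts were 3845 and 1049 in WT and 621 and 330 in CD4/ALK4-KO. Both WT libraries were above both CD4/ALK4-KO libraries, but the first WT library held 3.62-fold the CPM of the second. The log2 fold change was -2.18 with a standard error of 0.98 (adjusted p = 0.25). Removing WT replicate 1 gave -0.98 and removing WT replicate 2 gave -2.84. A genotype reduced to 1 library shows no spread of its own, so such fits cannot decide whether *Mmp3* differed.

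*Mmp10*, stromelysin 2, had 49 and 39 counts in WT and 9 and 9 in CD4/ALK4-KO. It was 4.31-fold lower in CD4/ALK4-KO (log2 fold change -2.11, standard error 0.58, adjusted p = 0.00755). At such counts it passed the expression filter only through the WT libraries, and the call was lost without WT replicate 1 (adjusted p = 0.206) or WT replicate 2 (adjusted p = 0.0822). *Mmp11*, stromelysin 3, which unlike most MMPs is activated inside the cell by furin, had 231 and 172 counts in WT and 75 and 108 in CD4/ALK4-KO, with no overlap. It was 1.96-fold lower (log2 fold change -0.97, standard error 0.31, adjusted p = 0.0177). Without WT replicate 1 or CD4/ALK4-KO replicate 1 the call was lost, with adjusted p of 0.291 and 0.0607. A stretch of 155 bases of its exons is shared with *Chchd10* on the other strand, and since the library kit does not mark strand, reads there cannot be assigned to either gene. *Chchd10* had 34 to 66 counts and did not pass the test (log2 fold change 0.62, adjusted p = 0.276).

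*Mmp3* and *Mmp10* belong to a row of MMP genes on chromosome 9. In GRCm38, the build the authors aligned to as mm10, 10 of the genes lie between 7272514 and 7699585, a span of 427 kb, in the order *Mmp13*, *Mmp12*, *Mmp1b*, *Mmp3*, *Mmp1a*, *Mmp10*, *Mmp8*, *Mmp27*, *Mmp20* and *Mmp7*. Of these, 6 were tested, 1 was lower (*Mmp10*) and none was higher. The fitted differences were uneven along the row, from -2.18 at *Mmp3* and -2.11 at *Mmp10* to 0.30 at *Mmp13* and 0.42 at *Mmp8*. *Mmp27*, between *Mmp8* and *Mmp20*, had 30 and 26 counts in WT and 16 and 13 in CD4/ALK4-KO (log2 fold change -0.77, standard error 0.58, adjusted p = 0.325). Neighbouring genes thus had fitted differences of opposite sign, but the positive ones were not called (standard error 0.24 for *Mmp13* and 0.63 for *Mmp8*).

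**Figure D2:**
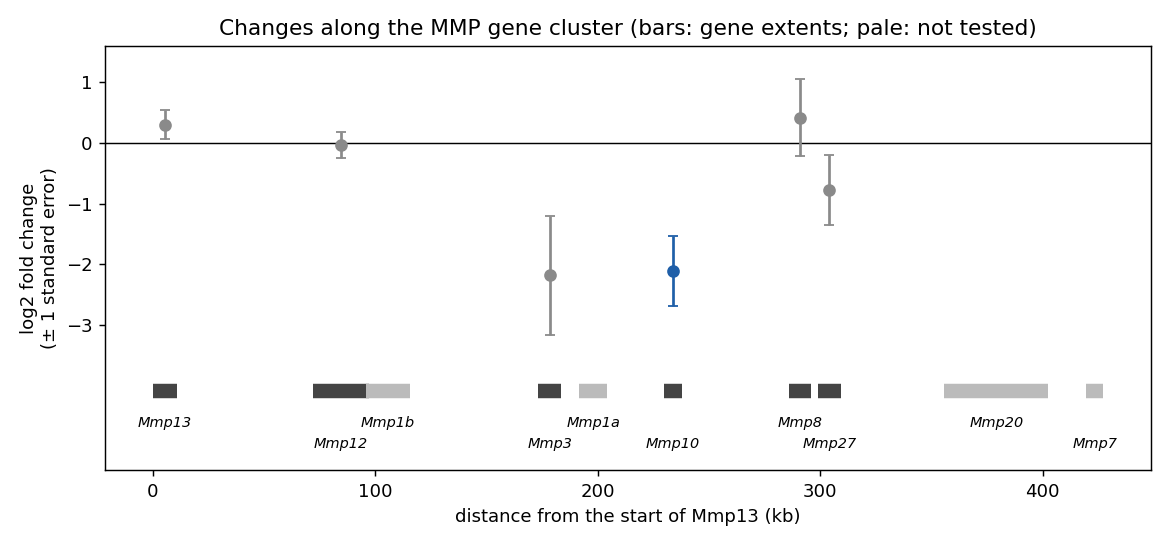
Log2 fold change (CD4/ALK4-KO against WT, bars of 1 standard error) of the 6 tested genes of the chromosome 9 MMP row against the distance from the start of *Mmp13* in kb, with the gene extents drawn below and untested genes in pale grey. *Mmp10* at -2.11 is the gene that passed the test (blue), and *Mmp3* at -2.18 has the widest error bar.

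Promoters of several of these genes carry a binding site of AP-1, the factor formed by Jun and Fos proteins, close to the start of transcription. The letters TGACTCA or TGAGTCA, which are each other's reverse complement so that both strands are covered, were searched in the RefSeq windows (GRCm38.p6) from 250 bases before to 50 bases after each start site. They were found in 5.2% of 32851 windows, and in those of 7 of the 33 matrix genes that the table holds. All 7 lie in the chromosome 9 row: *Mmp13*, *Mmp12*, *Mmp1b*, *Mmp3*, *Mmp1a*, *Mmp10* and *Mmp7*. The 100 bases upstream of the start site are shown 5′ to 3′ for the stromelysins with the lowest fold changes and for 3 neighbours with small differences, with the motif in capitals. All are on the plus strand of chromosome 9, at chr9:7445722-7445821, chr9:7502242-7502341, chr9:7272414-7272513, chr9:7347274-7347373 and chr9:7558329-7558428 in the order given.
Mmp3: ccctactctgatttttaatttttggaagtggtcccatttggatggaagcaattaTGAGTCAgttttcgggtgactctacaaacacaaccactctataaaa
Mmp10: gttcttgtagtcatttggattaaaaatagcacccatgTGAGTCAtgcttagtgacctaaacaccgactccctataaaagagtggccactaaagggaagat
Mmp13: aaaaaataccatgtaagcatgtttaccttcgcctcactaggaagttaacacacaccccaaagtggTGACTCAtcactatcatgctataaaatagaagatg
Mmp12: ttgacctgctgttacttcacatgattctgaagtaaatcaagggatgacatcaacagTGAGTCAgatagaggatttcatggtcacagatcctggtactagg
Mmp8: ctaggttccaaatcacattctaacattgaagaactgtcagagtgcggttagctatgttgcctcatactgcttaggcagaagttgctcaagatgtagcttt

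The motif began 46 bases before the start site in *Mmp3*, 63 in *Mmp10*, 35 in *Mmp13* and 44 in *Mmp12*, where it lies at the second of 2 start sites. The *Mmp8* window held no such letters. The motif was therefore shared by genes with fitted differences of -2.18 and -2.11 (*Mmp3*, *Mmp10*) and by genes at 0.30 and -0.04 (*Mmp13*, *Mmp12*), and a match describes the sequence and not binding.

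Of the membrane-anchored MMPs, *Mmp14* was lower and *Mmp25* higher in libraries labelled CD4/ALK4-KO. *Mmp14* (chromosome 14, 54431612 to 54445364) encodes MT1-MMP, a collagenase of the cell surface that activates the proenzyme of MMP2 with the help of TIMP2. It had 3573 and 3257 counts in WT and 1172 and 1699 in CD4/ALK4-KO, that is 251 ± 14.1 CPM and 118 ± 27.7 CPM (mean ± SD, n = 2), with no overlap. It was 2.12-fold lower (log2 fold change -1.09, standard error 0.23, adjusted p = 0.000803). With 1 library left out the difference ran from -1.35 to -0.83. *Mmp2*, whose product MMP14 activates, had 143 and 63 counts in WT and 87 and 71 in CD4/ALK4-KO, and the groups overlapped (log2 fold change -0.21, adjusted p = 0.711).

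*Mmp25* (chromosome 17, 23628311 to 23645277) encodes leukolysin, held in the membrane by a lipid anchor and known from neutrophils. It had 31 and 19 counts in WT and 95 and 76 in CD4/ALK4-KO, or 1.83 ± 0.606 CPM and 7.07 ± 1.29 CPM. It was 3.84-fold higher (log2 fold change 1.94, standard error 0.43, adjusted p = 0.00149). With 1 library left out its log2 fold change ran from 1.63 to 2.32, but on the T cell receptor scale it was -0.40 (adjusted p = 0.438). Of 11 neutrophil markers, 3 were higher (*Cxcr2*, *Csf3r* and *Ltf*) and none was lower, and their summed level ran from 944 to 1412 CPM in WT and from 953 to 1496 CPM in CD4/ALK4-KO. Among them *Csf3r*, the receptor of the granulocyte growth factor G-CSF, had 30.6 and 36.4 CPM in WT and 65.8 and 73.5 CPM in CD4/ALK4-KO. *S100a8* and *S100a9*, the markers with the highest levels, were not called, at log2 fold changes of -0.35 and 0.0056. The part of neutrophil RNA in the *Mmp25* difference was not tested. *Mmp17*, the other member of this group with enough counts to be tested, had 14 and 11 counts in WT and 4 and 16 in CD4/ALK4-KO and was not called (adjusted p = 0.891).

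Of the collagenases, gelatinases and the macrophage elastase, none passed the test. *Mmp8*, the neutrophil collagenase, had 675 and 1123 counts in WT and 1548 and 575 in CD4/ALK4-KO, so that both the highest and the lowest CPM were found in CD4/ALK4-KO (log2 fold change 0.42, standard error 0.63, adjusted p = 0.69). The fitted difference was 0.97 without CD4/ALK4-KO replicate 2 (adjusted p = 2.62e-05) and -0.47 without CD4/ALK4-KO replicate 1 (adjusted p = 0.0867). The libraries with more *Mmp8*, WT replicate 2 and CD4/ALK4-KO replicate 1, were also those with the larger neutrophil marker sums, 1412 and 1496 CPM against 944 and 953 CPM, and the part of neutrophil RNA in this was not tested.

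*Mmp9*, the gelatinase of neutrophils and macrophages, had 304 and 211 counts in WT and 297 and 345 in CD4/ALK4-KO (log2 fold change 0.49, adjusted p = 0.167). Its CPM did not overlap between the groups and yet missed the threshold. The *Mmp8* to *Mmp9* count ratio was 2.22 and 5.32 in WT and 5.21 and 1.67 in CD4/ALK4-KO, which differed more within a genotype than between them. *Mmp13*, the main collagenase of rodents, had 395 and 325 counts in WT and 392 and 398 in CD4/ALK4-KO (log2 fold change 0.30, adjusted p = 0.35).

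*Mmp12*, the elastase of macrophages, had 1687 and 1759 counts in WT and 1650 and 1338 in CD4/ALK4-KO. The fitted log2 difference was -0.04 with a standard error of 0.21 (adjusted p = 0.92), and the groups overlapped. The 12 macrophage markers summed to 2294 to 2783 CPM in WT and 2257 to 2448 CPM in CD4/ALK4-KO, and 1 of them, *Csf1r*, was higher. *Mmp12* shares 157 bases of exon with *Mmp1b* on the other strand, and *Mmp1b* had 0 to 18 counts.

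Among the remaining MMPs, *Mmp19* had 1052 and 1139 counts in WT and 1063 and 1230 in CD4/ALK4-KO (log2 fold change 0.23, standard error 0.21, adjusted p = 0.431). *Mmp28*, epilysin, had 25 and 25 counts in WT and 8 and 8 in CD4/ALK4-KO, passed the expression filter only through WT and missed the threshold (log2 fold change -1.46, standard error 0.64, adjusted p = 0.0829). *Mmp23* had 186 and 243 counts in WT and 202 and 189 in CD4/ALK4-KO and was at 0.03 on the log2 scale (standard error 0.27, adjusted p = 0.943). None of these 3 was called, although the *Mmp28* and *Mmp19* groups did not overlap in CPM.

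**Figure D3:**
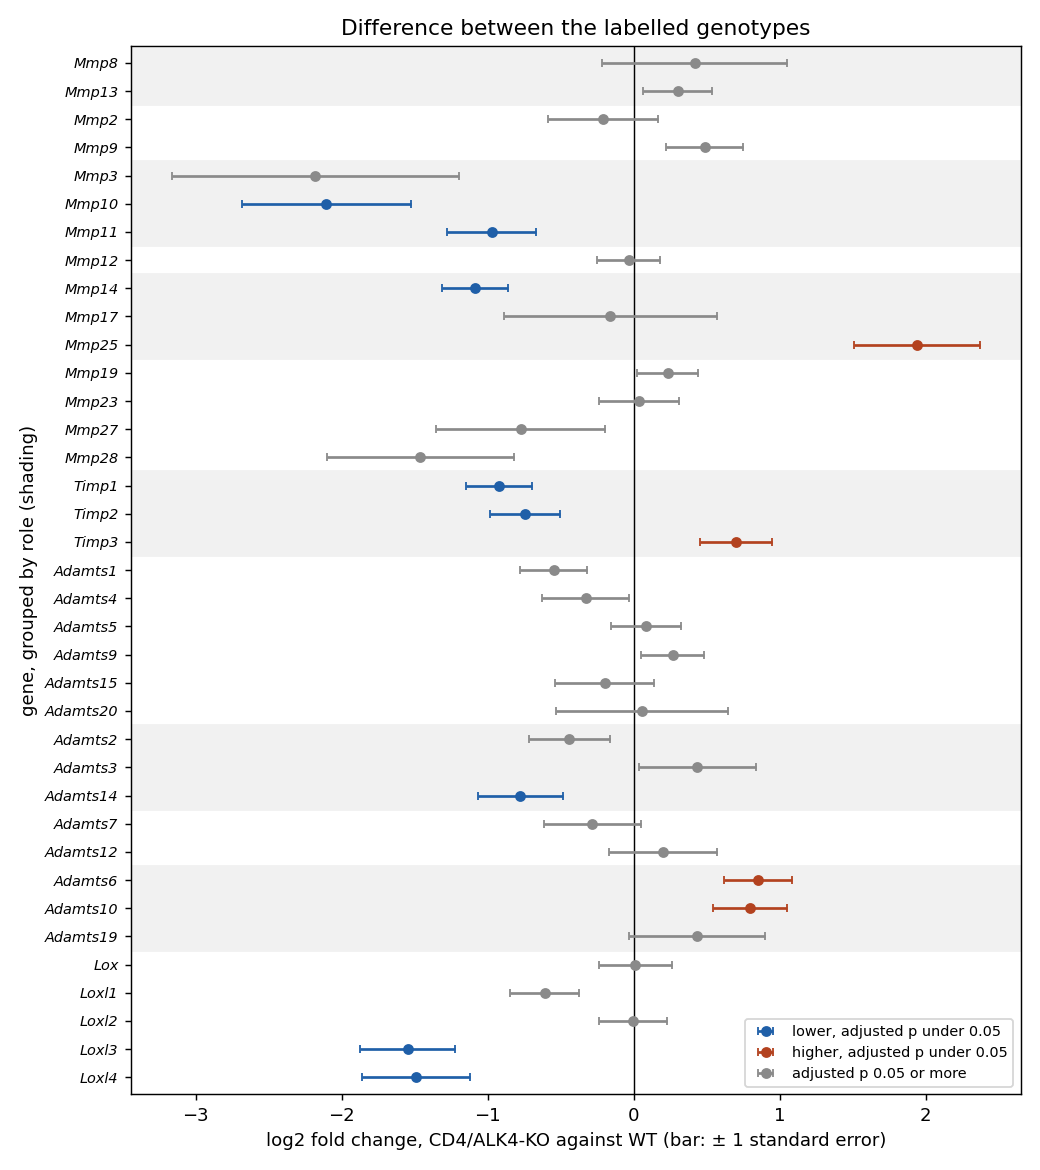
Log2 fold change (CD4/ALK4-KO against WT, bars of 1 standard error) of the 37 tested matrix genes, shaded by role, with genes of an adjusted p under 0.05 in blue (lower) or red (higher). The 8 lower genes run from -2.11 (*Mmp10*) to -0.74 (*Timp2*), and the 4 higher genes from 0.70 (*Timp3*) to 1.94 (*Mmp25*), all 4 of which were below 0 on the T cell receptor scale.

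All 3 TIMPs that were tested changed, and not in the same direction: *Timp1* and *Timp2* were lower and *Timp3* was higher, but lower on the T cell receptor scale. *Timp1* (chromosome X, 20870166 to 20874735), a secreted inhibitor induced by growth factors and cytokines, had 4099 and 3292 counts in WT and 1945 and 1513 in CD4/ALK4-KO, or 271 ± 39.4 CPM and 143 ± 28.9 CPM. It was 1.90-fold lower (log2 fold change -0.92, standard error 0.23, adjusted p = 0.00339), and the call was lost without WT replicate 1 (log2 fold change -0.77, adjusted p = 0.118). *Timp2* (chromosome 11, 118301069 to 118355740), the inhibitor that also helps to activate the MMP2 proenzyme, had 3647 and 3223 counts in WT and 1352 and 2320 in CD4/ALK4-KO. The groups did not overlap, but the CD4/ALK4-KO libraries differed 1.65-fold from each other.

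The log2 fold change of *Timp2* was -0.74 (standard error 0.24, adjusted p = 0.0203). It was -0.39 without CD4/ALK4-KO replicate 1 (adjusted p = 0.103) and -1.16 without CD4/ALK4-KO replicate 2, and the call was also lost without WT replicate 1 or WT replicate 2, with adjusted p of 0.203 and 0.0785. *Timp3* (chromosome 10, 86300372 to 86349506) encodes the inhibitor that stays bound to the matrix and also blocks ADAM17 and several ADAMTS proteases. It had 3529 and 3041 counts in WT and 5922 and 3521 in CD4/ALK4-KO, or 241 ± 23.1 CPM and 391 ± 150 CPM. Both CD4/ALK4-KO libraries were above both WT libraries in CPM, replicate 2 only slightly so, at 285 CPM beside 258 CPM for the higher WT library.

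The fitted difference of *Timp3* was 0.70 on the log2 scale (standard error 0.25, adjusted p = 0.0325) and became -1.66 on the T cell receptor scale. It was 0.27 without CD4/ALK4-KO replicate 1 (adjusted p = 0.26), and the call was likewise lost without WT replicate 1 (adjusted p = 0.154) or WT replicate 2 (adjusted p = 0.283). A stretch of 1733 bases of its exons overlaps *Syn3* on the other strand, which had 2 to 10 counts.

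Ratios within a library do not depend on its scaling. The ratio of *Timp1* to *Timp3* counts was 1.16 and 1.08 in WT and 0.328 and 0.430 in CD4/ALK4-KO. That of *Timp2* to *Timp3* was 1.03 and 1.06 in WT and 0.228 and 0.659 in CD4/ALK4-KO. Both ratios were near unity in WT and below it in CD4/ALK4-KO. They had to separate, since *Timp1* and *Timp2* were lower and *Timp3* higher without overlap in CPM, so the separation is no further result. The ratio of all *Mmp* counts to all *Timp* counts was 1.09 and 0.993 in WT and 0.787 and 0.873 in CD4/ALK4-KO. With *Mmp3* left out it was 0.748 and 0.883 in WT and 0.719 and 0.828 in CD4/ALK4-KO, so that the groups overlapped and the separation rested on that gene. With 2 libraries per genotype an exact permutation test of such a ratio cannot give a two-sided p under 0.333, and none was made.

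Of the ADAMTS genes, 14 were tested, of which *Adamts14* was lower and *Adamts6* and *Adamts10* were higher, the latter pair being lower on the T cell receptor scale. The proteoglycan-cutting members, *Adamts1*, *Adamts4*, *Adamts5*, *Adamts9*, *Adamts15* and *Adamts20*, had log2 fold changes from -0.55 to 0.27, and none was called. *Adamts1*, which cuts versican and aggrecan, had 1603 and 1572 counts in WT and 717 and 1223 in CD4/ALK4-KO (log2 fold change -0.55, standard error 0.23, adjusted p = 0.0732). The WT libraries were nearly equal and both lay above the CD4/ALK4-KO libraries, which differed 1.64-fold. Its neighbour on chromosome 16, *Adamts5*, an aggrecanase, had 371 and 345 counts in WT and 346 and 329 in CD4/ALK4-KO and was at 0.08 on the log2 scale (standard error 0.24, adjusted p = 0.823). *Adamts4*, the other classical aggrecanase, had 219 and 153 counts in WT and 110 and 154 in CD4/ALK4-KO (log2 fold change -0.33, adjusted p = 0.428). The groups overlapped in CPM for both aggrecanases.

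*Adamts9* had 622 and 645 counts in WT and 652 and 706 in CD4/ALK4-KO, and its CPM did not overlap (log2 fold change 0.27, standard error 0.21, adjusted p = 0.365). *Adamts15* had 132 and 112 counts in WT and 66 and 124 in CD4/ALK4-KO (log2 fold change -0.20, adjusted p = 0.698). *Adamts20* had 15 and 27 counts in WT and 17 and 22 in CD4/ALK4-KO (log2 fold change 0.06, adjusted p = 0.955). For the last 2 the groups overlapped.

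*Adamts2*, *Adamts3* and *Adamts14* encode the procollagen N-proteinases, which remove the amino-terminal propeptide of fibrillar collagens. *Adamts14* (chromosome 10, 61197112 to 61273438) had 378 and 321 counts in WT and 122 and 243 in CD4/ALK4-KO, with no overlap. The fitted log2 difference was -0.78 (standard error 0.29, adjusted p = 0.0454), and it was -0.35 without CD4/ALK4-KO replicate 1 (adjusted p = 0.326) and -1.33 without CD4/ALK4-KO replicate 2. The call was also lost without WT replicate 1 (adjusted p = 0.288) or WT replicate 2 (adjusted p = 0.1), and with DESeq2 (adjusted p = 0.0727). The fitted differences of the other two, which were not called, differed in sign. *Adamts2* had 213 and 229 counts in WT and 136 and 154 in CD4/ALK4-KO (log2 fold change -0.44, adjusted p = 0.231). *Adamts3* had 55 and 47 counts in WT and 54 and 69 in CD4/ALK4-KO (log2 fold change 0.43, adjusted p = 0.438).

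*Adamts6* (chromosome 13, 104287835 to 104496695) and *Adamts10* (chromosome 17, 33524204 to 33553782) encode a pair of close relatives, of which ADAMTS10 binds fibrillin microfibrils. *Adamts6* had 344 and 491 counts in WT and 690 and 650 in CD4/ALK4-KO, or 30.7 ± 7.92 CPM and 55.3 ± 3.76 CPM. It was 1.80-fold higher (log2 fold change 0.85, standard error 0.23, adjusted p = 0.0073), lost the call without WT replicate 1 (log2 fold change 0.60, adjusted p = 0.299) and was at -1.52 on the T cell receptor scale. *Adamts10* had 312 and 267 counts in WT and 348 and 549 in CD4/ALK4-KO, or 21.3 ± 2.14 CPM and 36.9 ± 10.8 CPM. Neither gene overlapped between the groups.

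*Adamts10* was 1.73-fold higher (log2 fold change 0.79, standard error 0.25, adjusted p = 0.0195) and was at -1.55 on the T cell receptor scale. Without CD4/ALK4-KO replicate 2 it was at 0.45 (adjusted p = 0.169), and the call was lost without WT replicate 1 (adjusted p = 0.111) or WT replicate 2 (adjusted p = 0.218) as well. The members that cut cartilage oligomeric matrix protein, *Adamts7* and *Adamts12*, were not called, and their groups overlapped. *Adamts7* had 96 and 127 counts in WT and 90 and 73 in CD4/ALK4-KO (log2 fold change -0.28, adjusted p = 0.558). *Adamts12* had 56 and 104 counts in WT and 84 and 80 in CD4/ALK4-KO (log2 fold change 0.20, adjusted p = 0.717). *Adamts19*, with 33 and 37 counts in WT and 47 and 37 in CD4/ALK4-KO, was not called either (log2 fold change 0.43, adjusted p = 0.518).

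Among the lysyl oxidases, *Loxl3* and *Loxl4* were lower in CD4/ALK4-KO, whereas *Lox* and *Loxl2* had fitted differences near 0. *Loxl3* (chromosome 6, 83034173 to 83052562) had 856 and 601 counts in WT and 132 and 314 in CD4/ALK4-KO, or 53.4 ± 12.8 CPM and 18.3 ± 10.1 CPM. It was 2.92-fold lower (log2 fold change -1.55, standard error 0.32, adjusted p = 0.00223). The log2 fold change was -2.27 when CD4/ALK4-KO replicate 2 was removed and -1.04 when replicate 1 of that genotype was. *Loxl4* (chromosome 19, 42593982 to 42612813) had 178 and 165 counts in WT and 30 and 79 in CD4/ALK4-KO, or 12.6 ± 0.559 CPM and 4.46 ± 2.74 CPM. Both genes had nonoverlapping groups and their lowest level in CD4/ALK4-KO replicate 1.

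*Loxl4* was 2.81-fold lower (log2 fold change -1.49, standard error 0.37, adjusted p = 0.00364), and removing CD4/ALK4-KO replicate 1 gave -0.95 and removing replicate 2 gave -2.32. *Loxl3* shares 535 of its 4603 exon bases with *Htra2* on the other strand. *Htra2* had 413 and 369 counts in WT and 203 and 272 in CD4/ALK4-KO and missed the threshold (log2 fold change -0.55, adjusted p = 0.0997), and the part of reads from the shared stretch in the *Loxl3* difference was not tested.

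*Lox*, the founding member of the family, had 1233 and 866 counts in WT and 1166 and 706 in CD4/ALK4-KO. The replicates of each genotype differed more than the genotypes did, and the log2 fold change was 0.01 with a standard error of 0.25 (adjusted p = 0.981). *Loxl2* had 462 and 380 counts in WT and 374 and 373 in CD4/ALK4-KO and was at -0.0041 with a standard error of 0.23 (adjusted p = 0.992). *Loxl1*, which acts on elastin, had 803 and 614 counts in WT and 478 and 346 in CD4/ALK4-KO and narrowly missed the threshold (log2 fold change -0.61, standard error 0.24, adjusted p = 0.0511). Within a library, the ratio of *Loxl3* to *Lox* counts was 0.694 in both WT libraries and 0.113 and 0.445 in the CD4/ALK4-KO libraries.

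The groups of all 12 genes that changed did not overlap in CPM, so leaving out 1 library could hardly turn their sign, and none turned. Whether a call was kept in such fits does not rank these genes, since a genotype reduced to 1 library shows no spread of its own. For *Loxl3*, *Loxl4*, *Timp2*, *Adamts14*, *Mmp11* and *Mmp14* the smallest differences were those without CD4/ALK4-KO replicate 1 and the largest those without CD4/ALK4-KO replicate 2. These 6 genes thus had their lower level in the same CD4/ALK4-KO library.

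**Figure D4:**
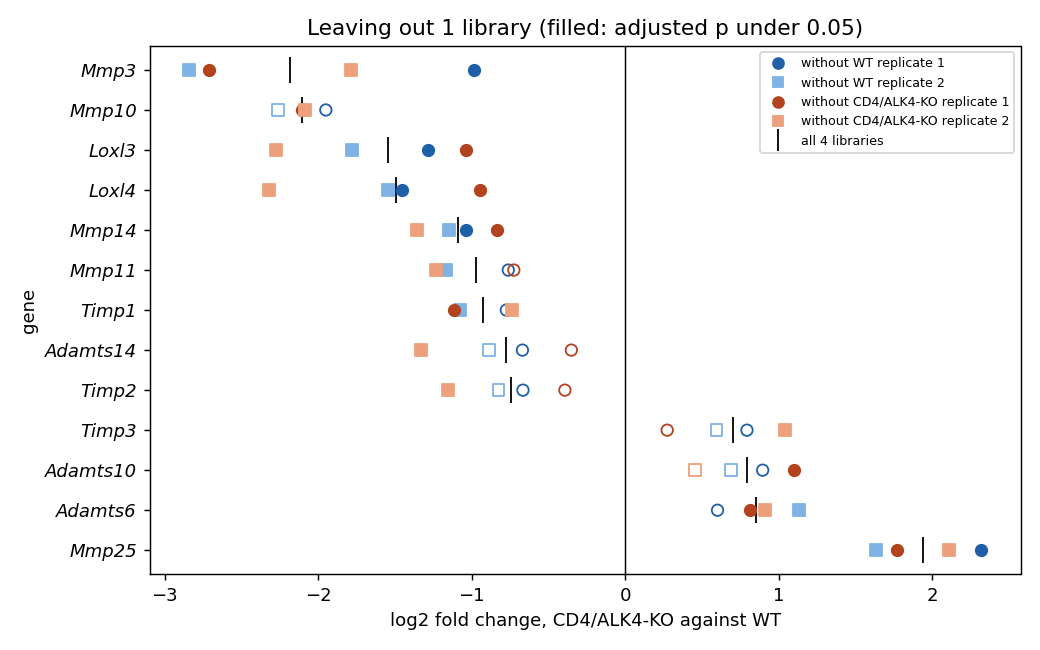
Log2 fold change (CD4/ALK4-KO against WT) of *Mmp3* and of the 12 matrix genes that changed, with all 4 libraries (vertical tick) and with each library left out (points, filled where the adjusted p was under 0.05). The points of *Mmp3*, *Mmp14*, *Loxl3*, *Loxl4* and *Mmp25* are filled throughout, and those of *Timp3* run from 0.27 to 1.04. *Mmp3* did not pass with all 4 libraries. A genotype reduced to 1 library shows no spread of its own, so filled points, among them those of *Mmp3*, do not decide whether a gene differed.

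The summed levels of the gene families moved less than several of their members. The *Mmp* genes summed to 896 and 702 CPM in WT and 609 and 520 CPM in CD4/ALK4-KO, and the *Timp* genes to 823 and 707 CPM in WT and 774 and 596 CPM in CD4/ALK4-KO. The *Lox* genes summed to 258 and 194 CPM in WT and 183 and 147 CPM in CD4/ALK4-KO. The *Adamts* genes summed to 325 and 332 CPM in WT and 293 and 359 CPM in CD4/ALK4-KO. The groups overlapped for the *Timp* and *Adamts* sums and did not for the *Mmp* and *Lox* sums.

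Of the fibroblast markers 7 of 12 were lower, with a median log2 fold change of -0.71. They moved in the direction of *Mmp14*, *Mmp11*, *Timp1*, *Timp2*, *Loxl3*, *Loxl4* and *Adamts14*. So did the tumor tracers *Rhox5* and *Plac1*, at -2.91 and -2.68. The part of fibroblast or tumor RNA in these differences was not tested. *Timp3*, *Adamts6* and *Adamts10* went the other way on the same scale. Of 11 tested epithelial markers 5 were lower and 2 higher, with sums of 901 to 912 CPM in WT and 446 to 591 CPM in CD4/ALK4-KO. Of 10 endothelial markers 2 were lower and 1 higher, with sums of 86.7 to 101 CPM in WT and 140 to 162 CPM in CD4/ALK4-KO. The median log2 fold change of the endothelial list was -0.60, and without *Pecam1* the other 9 genes summed to 58.5 to 64.1 CPM in WT and 33.9 to 53.4 CPM in CD4/ALK4-KO. B cell markers were higher in 8 of 8, dendritic cell markers higher in 5 and lower in 2 of 9, and alveolar macrophage markers lower in 2 and higher in 1 of 11.

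**Figure D5:**
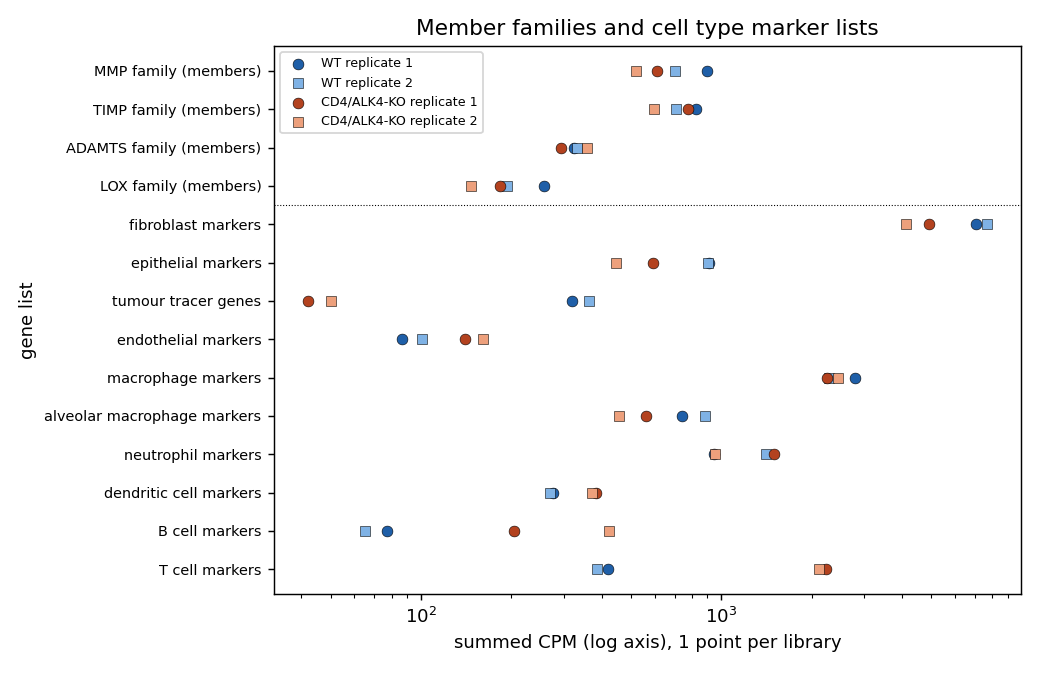
Summed CPM (log axis) of the 4 matrix gene families and of the cell type marker lists, with 1 point per library. T cell markers were at 385 to 420 CPM in WT and 2117 to 2238 CPM in CD4/ALK4-KO, and fibroblast markers at 7084 to 7659 CPM in WT and 4130 to 4923 CPM in CD4/ALK4-KO.

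The 14 genes that did not pass the filter had between 0 and 18 counts in every library. *Mmp21* and *Adamts18* had 0 counts in all 4 libraries, which allows up to 0.215 to 0.254 CPM per library, for counting error only. *Mmp16*, a membrane-anchored MMP, had 8 and 11 counts in WT and 1 and 1 in CD4/ALK4-KO, and *Mmp1b*, a rodent relative of the interstitial collagenase, 18 and 4 in WT and 4 and 0 in CD4/ALK4-KO. *Adamts13*, which cuts von Willebrand factor, had 0 and 1 in WT and 9 and 1 in CD4/ALK4-KO, and *Adamts16* had 1 to 9 counts. *Mmp15* had 5 to 9 counts. *Mmp1a*, *Mmp7*, *Mmp20*, *Mmp24*, *Timp4*, *Adamts8* and *Adamts17* had 0 to 5 counts each, and at this depth no difference could be shown for any of the 14.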

How the data were processed

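RNA was measured in 4 libraries of lung tumor CD4+ T cells, 2 of each genotype, grouped by the labels. The authors generated single-end reads of 75 bp with the TruSeq RNA v2 kit, aligned them with HISAT2 to mm10 and counted them per gene with htseq-count. The deposited values are raw counts per gene symbol, without normalization. Annotation, strand setting and tool versions are not given in the sources used here. Total counts were 11823908 to 13943237. Replicates differed beyond sampling noise (chi-square per degree of freedom 16.8 for WT and 30.0 for CD4/ALK4-KO).

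Genes were tested with edgeR 4.0.16 in R 4.3.3: filterByExpr (13919 of 25239 genes kept), TMM, the robust quasi-likelihood model with genotype alone, and Benjamini-Hochberg adjustment over all genes tested. The script was tested on simulated data. CPM used TMM-adjusted library sizes, and standard errors are the absolute log2 fold change over the square root of F. Locations and exon lengths are from GENCODE M21 (GRCm38), and promoter windows from RefSeq (GRCm38.p6). Every gene of the symbol rule was named or counted. Of each list of other matrix genes, the 3 with the highest mean CPM and those called were named, and the values of 1 of them are not reported here. The members and lists were chosen with earlier results of these data known. Alternatives were DESeq2 1.42.0 (size factors, Wald test), upper quartile scaling, scaling to T cell receptor genes, no filter, a minimum of 10 counts per library, a replicate block, and each library left out.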

Additional observations from a re-analysis of the deposited data

How the results depend on the processing

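Of the 8 lower and 4 higher matrix genes, leaving out 1 library left 4 to 10 lower and 1 to 4 higher, and the lowest counts came without WT replicate 1. Of the 19 lower and 3 higher genes of the other matrix lists it left 10 to 23 and 2 to 7. With the T cell receptor scale the counts were 36 and 0 for the matrix genes and 54 and 0 for the other lists. The median over the matrix genes was -2.47, beside -2.36 over all genes tested. With the replicate number as a block, 7 matrix genes were lower and 2 higher, since *Timp2*, *Timp3*, *Adamts10* and *Adamts14* lost the call and *Mmp3* gained it. No source ties same-numbered libraries together, their deviations correlated at -0.21 across genes, and with the numbers crossed, a choice made after seeing the data, 10 were lower and 5 higher, and 24 and 6 in the other lists. Under DESeq2's size factors or its Wald test 7 were lower and 4 higher, the call lost being that of *Adamts14*. Upper quartile scaling gave 10 and 4, no filter gave 10 and 4, and at least 10 counts in every library gave 8 and 4.

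The T cell receptor scale turned the sign of *Adamts10* (-1.55), *Adamts12* (-2.17), *Adamts19* (-1.92), *Adamts20* (-2.30), *Adamts3* (-1.90), *Adamts5* (-2.27), *Adamts6* (-1.52), *Adamts9* (-2.09), *Lox* (-2.34), *Mmp13* (-2.04), *Mmp19* (-2.12), *Mmp23* (-2.33), *Mmp25* (-0.40), *Mmp8* (-1.97), *Mmp9* (-1.85), *Timp3* (-1.66) and of the ADAM median (-2.22). Genes that had not passed the test also turned sign elsewhere. Under upper quartile scaling these were *Adamts20* (-0.0046), *Lox* (-0.067) and *Mmp23* (-0.032), under the replicate block *Lox* (-0.019) and *Loxl2* (0.0014), and under DESeq2's size factors and Wald test *Loxl2* (0.0060 in both). With 1 library left out the log2 fold change ran from -0.19 to 0.72 for *Adamts12*, -0.70 to 0.20 for *Adamts15*, -0.32 to 0.54 for *Adamts20*, -0.40 to 0.34 for *Lox*, -0.14 to 0.13 for *Loxl2*, -0.19 to 0.13 for *Mmp12*, -1.43 to 0.52 for *Mmp17*, -0.68 to 0.48 for *Mmp2*, -0.16 to 0.24 for *Mmp23* and -0.47 to 0.97 for *Mmp8*, and the median of the MMP regulators from -0.62 to 0.0087. The causes were not tested.

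With 2 libraries per genotype an arm reduced to 1 library is assumed to vary like the other. Leaving out a library also changes the power for every gene, and the counts in such fits are not set beside those of all genes. Genes under about 10 counts per library, among them *Mmp10* and *Mmp28* in CD4/ALK4-KO and the 14 untested genes, are limited by depth.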

Other observations

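Other genes of matrix turnover were listed by function and read from the same fit. Of their 54 tested genes, 19 were lower and 3 higher, which is 35.2% and 5.56%, beside 15.4% and 17.4% of all genes tested. The groups of these 22 genes did not overlap in CPM, so leaving out 1 library could hardly turn their sign, and none turned. The number that passed fell without WT replicate 1 and rose without CD4/ALK4-KO replicate 1. These numbers are not set beside those of all genes, whose power changes as well. The tolloid group, which removes the carboxy-terminal propeptide of procollagens, had 3 of 4 tested genes lower and none higher, with a median log2 fold change of -1.25: *Bmp1*, the proteinase, fell by 1.19, its enhancer *Pcolce* by 1.31 and *Pcolce2* by 1.63. *Bmp1* had 2130 and 1900 counts in WT and 677 and 899 in CD4/ALK4-KO (adjusted p = 0.000217), with no overlap.

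In the plasminogen activation system, whose protease plasmin activates several MMP proenzymes, 5 of 8 tested genes were lower and none was higher. *Plau*, urokinase, had 3983 and 3571 counts in WT and 1046 and 1503 in CD4/ALK4-KO (log2 fold change -1.40, standard error 0.23, adjusted p = 6.06e-05). *Plat*, tissue plasminogen activator, was at -0.63, and *Anxa2* and *S100a10*, which form a receptor for plasminogen, at -0.91 and -0.79. Both activators were thus lower, while *Serpinb2*, an inhibitor of the activators, missed the threshold (log2 fold change -0.51, adjusted p = 0.121) and *Plg*, the gene of plasminogen itself, had 0 counts in all 4 libraries.

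Of 9 tested regulators of MMPs, *Bsg*, an inducer of MMP expression, and *Thbs2* were lower, at -0.81 and -1.42, and *Reck*, a membrane-anchored MMP inhibitor, and *Thbs1* were higher, at 1.04 and 1.33, but below 0 on the T cell receptor scale. *Thbs1* had 10577 and 10358 counts in WT and 18434 and 28535 in CD4/ALK4-KO, and *Thbs2* 6485 and 5085 in WT and 1462 and 2395 in CD4/ALK4-KO, so that these related genes went in opposite directions on this scale. Of 9 ADAM proteases 1, *Adam19*, was higher (log2 fold change 1.40, adjusted p = 0.000632, below 0 on the T cell receptor scale) and none was lower, and *Adam10*, *Adam17* and *Adam8* were not called, at 0.10, -0.37 and 0.43. Of 5 ADAMTS-like genes, *Adamtsl3* was lower at -1.40, while *Adamtsl1* and *Adamtsl5* were not called. Of 7 proteoglycan genes, *Dcn*, *Lum* and *Hspg2* were lower, at -0.69, -1.62 and -0.95, the first 2 of them also standing in the fibroblast list, and *Vcan* was not called (log2 fold change -0.49, adjusted p = 0.0949). Of 12 elastic fibre genes, 5 were lower, *Mfap4* at -1.36, *Ltbp1* at -1.35, *Ltbp4* at -1.19, *Fbln5* at -1.09 and *Emilin1* at -0.81, and *Fbn1* and *Emilin2* were not called (-0.12 and 0.12). Without WT replicate 2, *Dcn* was at -0.45 (adjusted p = 0.397), and without WT replicate 1 *Pcolce2* was at -1.08 (adjusted p = 0.0677). *Hspg2* was at -0.58 and *Adam19* at 1.83 without CD4/ALK4-KO replicate 1, and *Adam19* was at 0.83 without CD4/ALK4-KO replicate 2. On the T cell receptor scale all 54 were lower, where the median of all genes tested was -2.36.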
